A study of Rattus norvegicus with 20 samples.

Results

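The genes described here are 42 rat symbols that mark macrophages and other leukocytes or their activated state, taken by name from a list. In the deposited count table, which holds 17337 gene symbols, 41 of the 42 were found; the B cell receptor chain Cd79a was not among its rows. The list falls into 31 identity genes, which are used as leukocyte markers, 9 activation and effector genes, and 2 lymphocyte genes. Some identity genes, such as Lyz2 (lysozyme), are not restricted to leukocytes. After the filter on low counts 35 of the 42 were tested, among 8320 genes in all: 26 identity genes, 9 activation genes and neither lymphocyte gene.

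Type II pneumocytes isolated from Sprague-Dawley rats were cultured for 4 days on fibronectin-coated silastic membranes, where they take on features of alveolar type I cells. Libraries of 3' ends of polyadenylated RNA (QuantSeq) were made from 5 animals under each of 4 conditions, 20 in all, and each library held RNA pooled from 4 monolayers of 1 animal. Unstretched controls (NS) were kept in 0.01% DMSO for 24 h, and stretched monolayers (S) were kept in 0.01% DMSO for 18 h and then cycled biaxially for 6 h at 15 cycles per min and a surface area change of 25%. The matching groups NS_PI and S_PI received 1 µM GSK2606414, which inhibits the endoplasmic reticulum stress kinase PERK, for 18 h before the stretch period (24 h in all for unstretched membranes in the treatment protocol); whether they also held DMSO is not stated. The primary isolate was not described as depleted of leukocytes in the labels, and the sex and age of the animals are not given.

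Resident macrophages lie on the alveolar surface and in the lung interstitium, and they are the usual leukocytes carried along when alveolar epithelium is freed from lung tissue by enzymes. Macrophage identity depends on the transcription factor PU.1 (gene Spi1) and on signalling through the receptor Csf1r, and macrophages sense antibody-coated particles with Fc receptors that signal through small adaptors with ITAM motifs. Activation adds toll-like receptor sensing, the superoxide-producing NADPH oxidase, leukotriene synthesis and secreted cytokines.

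PU.1 binds purine-rich sites with the core GAGGAAGT, so the promoters of the list were searched for these letters. RefSeq promoter windows on the build GRCr8 were found for 29 of the 42 genes. In the 250 bases before the transcription start, GAGGAAGT or its reverse complement ACTTCCTC was present in 5 of the 29 (17.2%), namely Cd37, Cd53, Ctss, Fcgr3a and Vav1, against 683 of 33469 promoters (2.04%) in the whole table. The shorter core GAGGAA, which every GAGGAAGT also contains, was present on either strand in 20 of the 29 (69%), against 23.3% of all promoters. The windows of Ctss, a lysosomal protease (chr2:185775146-185775395, plus strand), Fcgr3a, an activating Fc receptor (chr13:85782386-85782635, plus strand), and Cd53, a tetraspanin of leukocytes (chr2:197087897-197088146, minus strand), are printed because these 3 genes rose in at least 1 comparison below. Each reads 5′ to 3′ in the direction of the gene, its last base lies just before the start, and capitals mark the match.
Ctss: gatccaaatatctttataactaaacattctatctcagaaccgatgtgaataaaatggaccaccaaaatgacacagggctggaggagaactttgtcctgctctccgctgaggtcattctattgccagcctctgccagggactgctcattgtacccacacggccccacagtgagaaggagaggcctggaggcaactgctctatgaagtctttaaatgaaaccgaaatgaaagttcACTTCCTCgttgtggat
Fcgr3a: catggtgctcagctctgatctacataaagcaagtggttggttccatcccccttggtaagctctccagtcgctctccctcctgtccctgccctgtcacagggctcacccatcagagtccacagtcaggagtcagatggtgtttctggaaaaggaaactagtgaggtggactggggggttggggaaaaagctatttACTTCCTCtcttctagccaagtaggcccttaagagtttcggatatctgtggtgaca
Cd53: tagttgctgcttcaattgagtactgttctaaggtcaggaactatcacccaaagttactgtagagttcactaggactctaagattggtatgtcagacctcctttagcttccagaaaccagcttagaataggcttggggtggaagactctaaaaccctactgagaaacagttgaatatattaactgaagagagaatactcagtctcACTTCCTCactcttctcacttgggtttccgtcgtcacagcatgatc
In all 3 the match is on the strand opposite to the gene, and its nearest base lies 10, 49 and 39 bases before the start. A match of letters does not show binding, and the remaining promoters lack only these letters in these windows.

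Depth ranged from 999209 to 3131541 gene counts per library, and both extremes were stretched libraries without inhibitor. Levels are given in CPM, counts set to a common total after TMM scaling, and a count of 3 equals 1.07 to 3.05 CPM depending on the library. The kit makes 1 fragment per transcript, so CPM is compared between genes without division by length. The label of type I-like epithelium was checked on marker lists. The 12 type I markers summed to 1137 to 8022 CPM per library. The 9 type II markers found summed to 220 to 759 CPM, so type II transcripts were still present in every library. Among the 12 type I markers Pdpn was at 1827 and Ager at 499.7 CPM on average, while Aqp5 (3.03 CPM) and Rtkn2 (0.491 CPM) were near or below the floor. The epithelial markers Cdh1 and Epcam averaged 5150.3 and 1909 CPM.

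The cultures also held leukocyte transcripts in all 20 libraries. A list of 13 macrophage and pan-leukocyte genes, called the macrophage sum below, summed to 579 to 2970.3 CPM. The 6 epithelial markers summed to 2527 to 12869 CPM. Records outside annotated genes (16.2 to 24.5%) or without a single place (35.5 to 57.7%) were not counted. A low count therefore does not show that a transcript was absent. Some members had almost no counts. Marco, a scavenger receptor typical of alveolar macrophages, had 1 count in 1 library, and Cd163, the haemoglobin scavenger receptor (a member outside the 13), also had 1 count in 1 library. Lists of other blood cells were lower. The 7 B and plasma cell genes found summed to at most 2.11 CPM and the 5 mast cell and eosinophil genes to at most 1.36 CPM, both near or below the floor. The 10 neutrophil genes summed to 21.7 to 128 CPM, led by the chemokine receptor Cxcr1 at 34.8 CPM on average, while Mpo and Cxcr2 had no count. The 7 dendritic cell genes reached 52.4 CPM and the 13 T and NK cell genes 20.3 CPM in the highest library, led by Cd83 and Lck; the T cell receptor chain Cd3e had 2 counts in all, in 2 libraries.

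The macrophage sum was higher in the stretched than in the unstretched library of the same animal in 5 of 5 animals without inhibitor and in 5 of 5 with it. Without inhibitor the ratios of stretched to unstretched in animals 1 to 5 were 1.9, 1.6, 1.35, 1.27 and 1.65, and with inhibitor they were 1.74, 1.26, 1.26, 1.48 and 1.63. The group means were 1552 ± 706 CPM in NS and 2267 ± 750.1 CPM in S (SD, n = 5), and 1432 ± 560.0 CPM in NS_PI and 2029 ± 620.1 CPM in S_PI. Laptm5, Fcer1g and Tyrobp, which rose, make up most of this sum. Laptm5 is a pan-leukocyte gene, so the sum is not particular to macrophages. The sum of all 31 identity genes found, which Lyz2 leads, had ratios of 1.34, 1.06, 1.31, 1.35 and 1.23 without inhibitor and 1.65, 0.961, 1.22, 1.34 and 1.7 with it, the latter above 1 in 4 of 5 animals. The 13 identity genes that were not called in S against NS, without Lyz2, had ratios of 1.14, 1.04, 1.03, 1.34 and 1.1 without inhibitor. They were chosen for not passing in that same comparison, so the choice itself favours low ratios there. With inhibitor their ratios were 1.56, 1.003, 1.17, 1.29 and 1.81. CPM is a share of the RNA of the whole culture, which other cells also set. Numbers of leukocytes, transcripts per leukocyte and the amount of RNA from other cells cannot be told apart here.

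Epithelial transcripts moved with stretch as well, but not in every animal. The ratios of the epithelial sum in animals 1 to 5 were 0.339, 1.27, 1.03, 0.42 and 0.448 without inhibitor and 0.204, 1.03, 1.28, 0.459 and 0.559 with it. The sum of the 6 markers thus lay lower after stretch in animals 1, 4 and 5 and higher in animals 2 and 3. It ran from 10038 to 11704 CPM in NS, from 3408 to 12869 in S, from 7513 to 12393 in NS_PI and from 2527 to 11274 in S_PI. The ratios of the macrophage sum in the same animals are given above, and their relation to the epithelial sum was not tested. Sums of 10 fibroblast and smooth muscle genes, led by Col1a1 and Acta2 with none at 0 in every library, ran from 3272 to 7542 CPM in NS, 3995 to 12505 in S, 3266 to 10699.9 in NS_PI and 4027 to 14358 in S_PI. They were higher after stretch in 4 of 5 animals and, with inhibitor, in 5 of 5; their part in the leukocyte result was not tested.

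**Figure D1:**
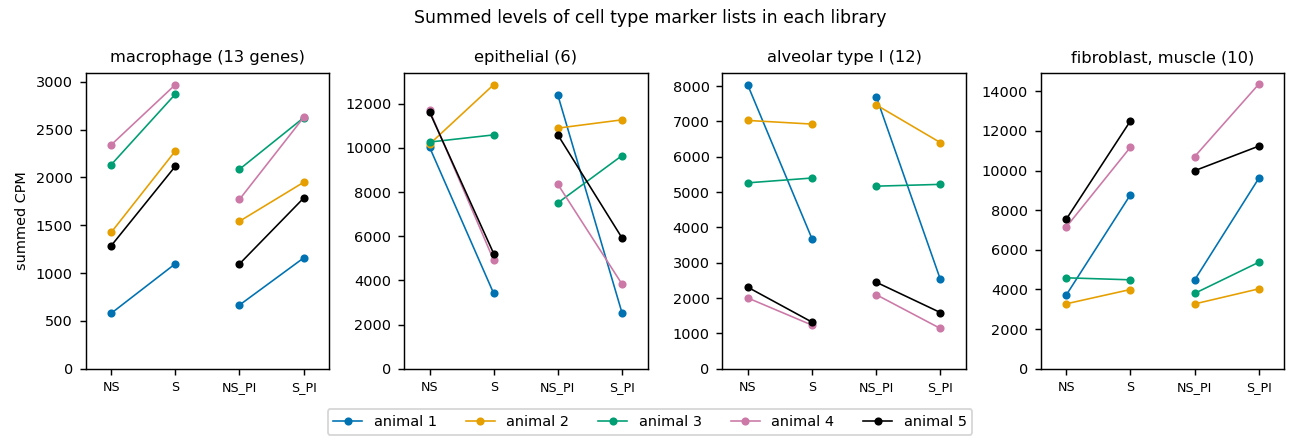
Summed CPM (vertical axes, each with its own scale from 0) of 4 marker lists in the 4 groups (horizontal axis). The lists are 13 macrophage and pan-leukocyte (titled macrophage), 6 epithelial, 12 alveolar type I and 10 fibroblast and smooth muscle genes. Lines join the unstretched and stretched library of each of 5 animals. All 10 macrophage lines rise, while the epithelial lines fall in animals 1, 4 and 5 and rise in animals 2 and 3.

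Levels of single members spanned a wide range. Lyz2 (lysozyme, 4919.5 CPM over all 20 libraries), Spp1 (osteopontin, 4376 CPM) and Gpnmb (a lysosomal glycoprotein, 2876 CPM) stood at the top. None of these 3 is restricted to leukocytes, and type II pneumocytes are a known source of lysozyme. They were followed by Laptm5, a lysosomal membrane protein of blood cells, at 718 CPM, Ctss at 601 CPM and the oxidase subunits Ncf1 and Cyba at 542 and 455 CPM. Ptprc (CD45), the surface phosphatase of leukocytes, had group means of 90.8 to 108 CPM, and over all libraries Csf1r averaged 35 CPM and Spi1 26.6 CPM. The lowest tested members were C1qa, Cd37 and C1qc, at 6.38, 4.57 and 3.73 CPM. Adgre1 (the F4/80 antigen), C1qb and the lysosomal exonuclease Pld4 were detected in 18 or 19 of the 20 libraries at 1.49 to 2.49 CPM and were too low to test.

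With stretch, 12 identity genes rose 1.39- to 1.88-fold and no member fell. In S against NS, 12 of the 35 tested members rose and 0 fell, where 12.5% of all tested genes rose and 12.4% fell (edgeR quasi-likelihood test, adjusted p below 0.05). The median log2 fold change was 0.44 over the members and -0.01 over all genes. All 12 were identity genes, 12 of 26 with a median of 0.47; of the 9 activation genes 0 rose, with a median of 0.18, 1 (Cybb) at an unadjusted p below 0.05 (all genes 37.5%) and 0 called by DESeq2 (all genes 21.4%). The difference between the classes was not tested. The 12 calls were made with the animal in the model; without it 0 members passed and 2 had an unadjusted p below 0.05. With the 10 libraries of these groups alone in the fit 5 of the 12 passed, and Cd68, Mrc1, Msr1, Fcgr1a, Fcgr3a, Ctss and Rac2 lost their call, with adjusted p from 0.0516 for Mrc1 to 0.0862 for Fcgr1a.

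The 5 listed Fc receptor and adaptor genes all rose, with a median of 0.70, where 12.5% of all tested genes rose. A further Fc receptor outside the members, Fcgr2a, did not pass (0.13 ± 0.21, adjusted p = 0.702). Fcer1g, the common gamma chain that carries the ITAM for several Fc receptors, was at 87.2, 189.9, 233, 452 and 264 CPM in the NS libraries of animals 1 to 5 and at 182, 445, 509.9, 663 and 439 CPM in the S libraries. It was higher in every animal, although the groups overlapped, and it rose by 0.91 ± 0.16 (log2 fold change ± SE; 1.88-fold, adjusted p = 4.99e-04). Tyrobp (DAP12), the adaptor of receptors such as Trem2, was at 97.8, 214, 344, 382 and 247 CPM in NS and 185, 300.5, 564, 433 and 447 CPM in S. It too was higher in 5 of 5 animals and rose by 0.63 ± 0.14 (adjusted p = 0.00273), with the smallest step in animal 4.

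The 3 listed receptors for immunoglobulin G also rose, at lower levels than the adaptors. Fcgr1a, the high-affinity receptor, was at 0.462, 10.9, 14.9, 25.3 and 21.2 CPM in NS and 4.53, 15, 29.7, 31.5 and 33.5 CPM in S, higher in 5 of 5 animals, with the value of NS animal 1 below the floor. It rose by 0.70 ± 0.24 (adjusted p = 0.0399). Fcgr2b, the inhibitory receptor, was at 2.77, 25.2, 29.1, 41.8 and 24.9 CPM in NS and 5.03, 51.4, 44.5, 65.1 and 34.1 CPM in S, higher in 5 of 5 animals. It rose by 0.70 ± 0.19 (adjusted p = 0.0113). Fcgr3a, an activating receptor, was at 10.6, 26.6, 37.2, 57.7 and 38.5 CPM in NS and 20.6, 46, 35.8, 121 and 47 CPM in S. It was higher in 4 of 5 animals, close to level in animal 3 and highest in S animal 4, and rose by 0.61 ± 0.18 (adjusted p = 0.019). The calls of these 3 receptors were lost when single animals were left out: without animal 2 the adjusted p was 0.0666 for Fcgr1a, 0.073 for Fcgr2b and 0.0779 for Fcgr3a. Fcgr1a also lost its call without animal 3 (0.133) or 5 (0.0947) and Fcgr3a without animal 4 (0.115). Fcgr2b and Fcgr3a belong to a family with near-identical stretches and records with several places were not counted for any gene, so their split is uncertain.

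Of the 7 listed macrophage surface and scavenger receptors 4 were tested and 3 rose, with a median of 0.53, where 12.5% of all tested genes rose. Mrc1 (CD206), the mannose receptor of tissue macrophages, was at 70.2, 142, 208, 199 and 97.6 CPM in NS and 161, 199.8, 211, 256 and 179.6 CPM in S, higher in 5 of 5 animals but nearly level in animal 3. It rose by 0.58 ± 0.16 (adjusted p = 0.0125; 0.0646 without animal 5). Msr1, a scavenger receptor for modified lipoproteins, was at 9.23, 9.37, 37.8, 30 and 18.4 CPM in NS and 25.6, 25, 27.8, 49.8 and 37.3 CPM in S. It was lower after stretch in animal 3 and higher in the other 4, and rose by 0.76 ± 0.24 (adjusted p = 0.0271). Cd68, a lysosomal membrane glycoprotein of phagocytes, was at 69.7, 117, 142, 124 and 136 CPM in NS and 102, 118, 176, 191 and 247 CPM in S. It was higher in 5 of 5 animals, by least in animal 2, and rose by 0.47 ± 0.17 (adjusted p = 0.0413). Msr1 lost its call without animal 1, 2, 4 or 5 (adjusted p = 0.0862, 0.0962, 0.0639 and 0.0937) and Cd68 without animal 3, 4 or 5 (0.0684, 0.13 and 0.142).

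The remaining tested receptor of that group, Csf1r, and the lineage factor Spi1 did not pass. Csf1r was at 19.8, 41.4, 44.7, 38.3 and 32 CPM in NS and 6.54, 36.8, 53.8, 43.7 and 20 CPM in S, higher in 2 of 5 animals and lowest in S animal 1. Its log2 fold change was -0.28 ± 0.21, with a 95% confidence interval of -0.72 to 0.17 (adjusted p = 0.341). Spi1 was at 7.85, 19.2, 37.8, 50.1 and 15.2 CPM in NS and 6.54, 32.5, 32.1, 37.6 and 23.2 CPM in S, higher in 2 of 5 animals. Its log2 fold change was 0.09 ± 0.22 with an interval of -0.40 to 0.58, and a rise of the size found for Cd68 lies within it.

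Pan-leukocyte membrane genes split. Laptm5 was at 183, 576, 976, 948 and 399 CPM in NS and 393, 1027, 1169, 1171 and 657 CPM in S, higher in 5 of 5 animals, and rose by 0.62 ± 0.14 (adjusted p = 0.00382). Ptprc was at 36.9, 117, 133, 127 and 77.6 CPM in NS and 48.3, 103, 125, 150.5 and 89.5 CPM in S, higher in 3 of 5 animals. Its log2 fold change was 0.10 ± 0.20 (interval -0.33 to 0.52, adjusted p = 0.75). The tetraspanin Cd53 had 0.22 ± 0.19, the tetraspanin Cd37 0.84 ± 0.39 at no more than 14.2 CPM in any library and Cd48, a ligand of the SLAM family, -0.21 ± 0.21. None of these 3 passed.

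Among C1q, lysozyme and lysosomal enzymes 1 of 4 tested genes rose, where 12.5% of all tested genes did. Ctss, the protease that frees class II molecules of their invariant chain, was at 139, 442, 684, 810.0 and 453 CPM in NS and 183, 691, 995, 1198 and 525 CPM in S. It was higher in 5 of 5 animals and rose by 0.47 ± 0.12 (adjusted p = 0.00849). Lyz2 was at 972, 6676, 4955, 8056 and 2318 CPM in NS and 1005, 5988, 6597, 10829 and 2425 CPM in S. Animals 1 and 4 marked the lowest and highest value in both groups, and the log2 difference with stretch was 0.15 ± 0.15 (adjusted p = 0.475). The complement genes C1qa (0.63 ± 0.29) and C1qc (0.29 ± 0.43) did not pass at levels near the floor.

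Among 7 genes of the leukocyte cytoskeleton and its signalling 2 rose, where 12.5% of all tested genes did. Aif1 (IBA1), an actin-binding protein of macrophages, was at 34.2, 66.6, 65.1, 71.3 and 41.8 CPM in NS and 63.9, 80.3, 114, 113 and 71.5 CPM in S, higher in 5 of 5 animals, with a rise of 0.68 ± 0.15 (adjusted p = 0.00282). Rac2, a signalling protein of blood cells that also activates the oxidase, was at 31.4, 54.8, 96.7, 116 and 77 CPM in NS and 75.4, 98.9, 103, 185 and 83.1 CPM in S, higher in 5 of 5 animals. It rose by 0.59 ± 0.17 (adjusted p = 0.0178), but not without animal 2 (0.0797) or animal 4 (0.0629). Coro1a, Lcp1, Lsp1, Plek and Vav1 had log2 fold changes of -0.12 (Vav1) to 0.44 (Coro1a) and did not pass.

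**Figure D2:**
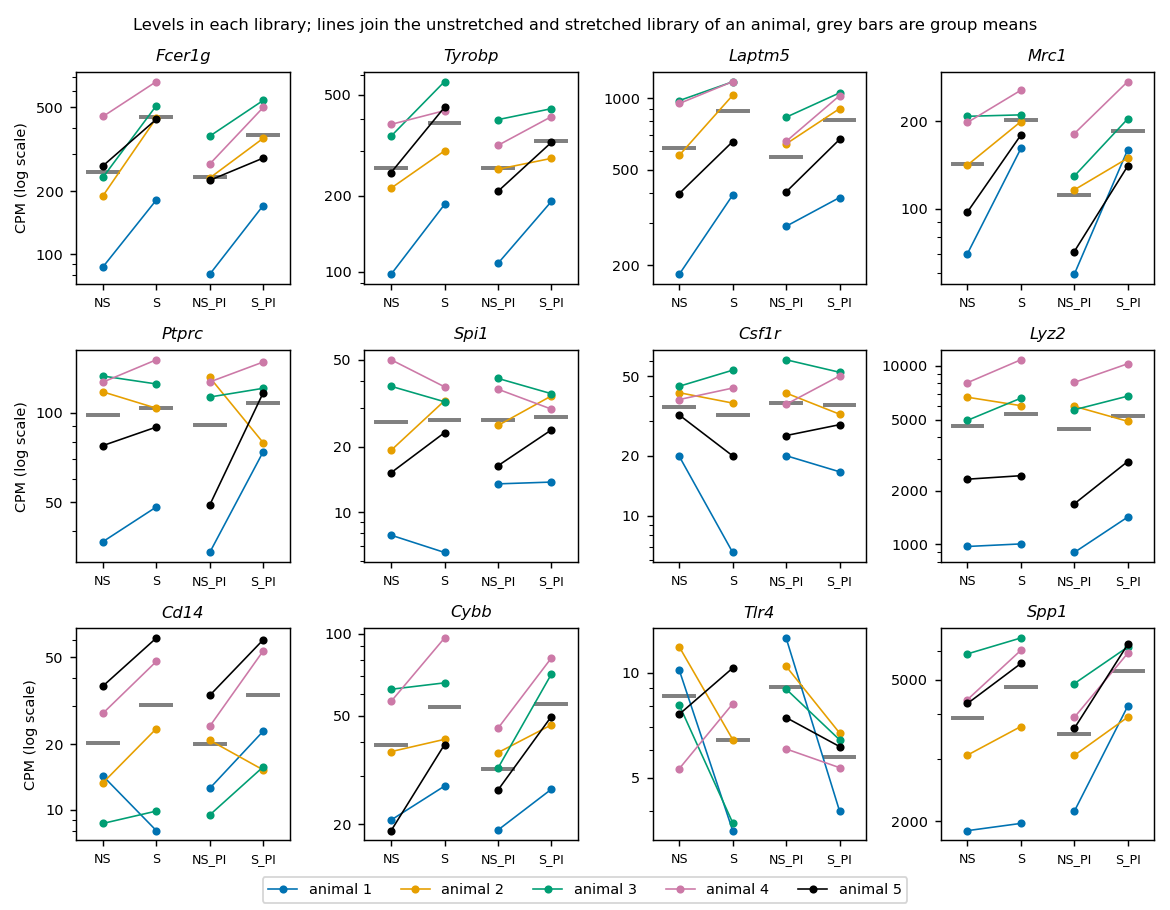
CPM (vertical axes, log scale) of 12 members in the 4 groups (horizontal axis), with points joined for the unstretched and stretched library of each of 5 animals and grey bars at the group means. Fcer1g, Tyrobp, Laptm5 and Mrc1 rise in all 5 animals in both comparisons, Ptprc, Spi1 and Csf1r have lines in both directions, and animal 1 is lowest for most of the genes.

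None of the 9 activation and effector genes passed in S against NS, where 24.9% of all tested genes passed in either direction. Cybb, the catalytic subunit of the phagocyte oxidase, was at 20.8, 37, 62.6, 56.6 and 19 CPM in NS and 27.7, 41, 66.1, 96.6 and 39.3 CPM in S, higher in 5 of 5 animals, by 0.46 ± 0.18 (adjusted p = 0.0653; 0.0463 without animal 3). Cd14, the co-receptor for lipopolysaccharide, was at 14.3, 13.3, 8.68, 27.7 and 36.9 CPM in NS and 8.05, 23.6, 9.89, 47.8 and 61.2 CPM in S, lower in animal 1 and higher in the other 4. Its log2 difference was 0.46 ± 0.24 (adjusted p = 0.165; 0.0241 without animal 1). Alox5ap, which presents arachidonic acid for leukotriene synthesis, was at 10.2, 29.1, 43.4, 111 and 50.4 CPM in NS and 6.03, 64.9, 64.3, 173 and 45.1 CPM in S, higher in 3 of 5 animals, by 0.45 ± 0.23 (adjusted p = 0.148; 0.0221 without animal 1). Spp1 was at 1885, 3071, 5907, 4396 and 4287 CPM in NS and 1975, 3694, 6546, 6045 and 5551 CPM in S, higher in 5 of 5 animals but by 0.27 ± 0.15 only (adjusted p = 0.197).

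The toll-like receptors, Gpnmb and the oxidase subunits Cyba and Ncf1 had log2 differences between -0.50 and 0.18. Tlr4, the receptor for lipopolysaccharide, was at 10.2, 11.8, 8.06, 5.3 and 7.59 CPM in NS and 3.52, 6.42, 3.71, 8.13 and 10.3 CPM in S, with a log2 difference of -0.50 ± 0.31 (adjusted p = 0.252). Tlr2, the receptor for bacterial lipoproteins, was at 16.9 ± 9.11 and 16.7 ± 3.91 CPM (SD, n = 5) and differed by 0.06 ± 0.34. Gpnmb was at 1917, 2404, 3619.9, 3719 and 2833 CPM in NS and 2195, 2320.3, 3553, 3877 and 3156 CPM in S, a log2 difference of 0.06 ± 0.15. The membrane subunit Cyba (0.18 ± 0.12) and the cytosolic subunit Ncf1 (0.17 ± 0.17) did not pass either, so of the 3 oxidase genes none was called.

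In the presence of the PERK inhibitor the same 12 identity genes rose with stretch, and 5 further members passed. In S_PI against NS_PI 17 of 35 members rose and 0 fell, where 15.2% of all tested genes rose and 15.3% fell. The median was 0.47 over the members and -0.02 over all genes. By class, 13 of 26 identity genes (median 0.49) and 4 of 9 activation genes (median 0.30) rose. Of the members 19 were higher in 5 of 5 animals, against 18.2% of all genes; in S against NS it was 13, against 12.9%. Without the animal in the model 0 of the 35 passed and 4 had an unadjusted p below 0.05.

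The 5 listed Fc receptor and adaptor genes again rose, with a median of 0.72, where 15.2% of all tested genes rose. Outside the members, Fcgr2a passed in this comparison (0.59 ± 0.21, adjusted p = 0.0413). Fcer1g was at 80.5, 231, 365, 269 and 225 CPM in NS_PI and 171, 356, 539, 499 and 287 CPM in S_PI, higher in every animal, and rose by 0.70 ± 0.16 (adjusted p = 0.00303). Tyrobp was at 108, 254, 399, 316 and 208 CPM in NS_PI and 189.7, 281, 441, 410.1 and 324 CPM in S_PI and rose by 0.41 ± 0.14 (adjusted p = 0.0273). Its steps in animals 2 and 3 were small, and its call was lost without animal 1, 4 or 5 (adjusted p = 0.0914, 0.0613 and 0.102). Fcgr1a rose from 10.2 ± 5.15 to 18.7 ± 8.98 CPM (SD, n = 5) by 0.86 ± 0.26, Fcgr2b from 21.7 ± 12.4 to 36.1 ± 20 CPM by 0.72 ± 0.20 and Fcgr3a from 28.4 ± 19.5 to 49.6 ± 22.7 CPM by 0.87 ± 0.19. All 3 were higher in 5 of 5 animals. Without animal 4 or 5 the adjusted p was 0.0912 or 0.0587 for Fcgr1a and 0.0787 or 0.0554 for Fcgr2b.

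Surface receptors and the lysosomal and cytoskeletal genes were again among the calls. Mrc1 was at 59.6, 116, 129.7, 182 and 71.3 CPM in NS_PI and 159.9, 149, 204, 274 and 140.4 CPM in S_PI, higher in every animal, and rose by 0.79 ± 0.16 (adjusted p = 0.00114). Msr1 was at 9.31, 15.8, 24.3, 18.1 and 18.6 CPM in NS_PI and 25.8, 26.2, 31.5, 55.7 and 25.9 CPM in S_PI and its lowest S_PI value lay above its highest NS_PI value. It rose by 0.93 ± 0.25 (adjusted p = 0.00719; 0.074 without animal 4). Cd68 rose by 0.65 ± 0.17, from 98 ± 30.8 to 150.3 ± 28.5 CPM. Laptm5 rose from 565 ± 216 to 806 ± 279.6 CPM by 0.52 ± 0.14, with an adjusted p of 0.00923 and of 0.0641 without animal 5. Ctss, Aif1 and Rac2 rose by 0.61 ± 0.12, 0.62 ± 0.15 and 0.52 ± 0.18. Rac2 lost its call without animal 1, 2, 4 or 5 (adjusted p of 0.096, 0.0704, 0.0959 and 0.0516).

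The 5 further members were Cd53, Cybb, Alox5ap, Spp1 and Cd14. Cd53 was at 101, 198, 294, 307 and 175 CPM in NS_PI and 245, 237, 369, 529 and 417 CPM in S_PI and rose by 0.78 ± 0.19 (adjusted p = 0.00395). Cybb was at 19.1, 36.7, 32.2, 45.1 and 26.7 CPM in NS_PI and 26.9, 46.4, 71.2, 81.6 and 49.8 CPM in S_PI and rose by 0.75 ± 0.18 (adjusted p = 0.00386). Both were higher in 5 of 5 animals. Alox5ap was at 16.3, 29.2, 42.7, 75.2 and 43.8 CPM in NS_PI and 22.9, 64.1, 71.7, 157 and 80.4 CPM in S_PI, with a rise of 0.88 ± 0.23 (adjusted p = 0.00633). Spp1 was at 2135, 3064, 4873, 3917 and 3649.6 CPM in NS_PI and 4211, 3923, 6174, 5929 and 6276 CPM in S_PI, with a rise of 0.63 ± 0.15 (adjusted p = 0.00389). Both were again higher in every animal. Cd14 was at 12.6, 20.8, 9.49, 24.2 and 33.4 CPM in NS_PI and 22.9, 15.3, 15.7, 53.4 and 60 CPM in S_PI, lower in animal 2 alone, with a rise of 0.66 ± 0.24 (adjusted p = 0.0389). Its call was lost without animal 3, 4 or 5 (adjusted p = 0.099, 0.206 and 0.132).

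That these 5 passed in 1 comparison and not in the other does not show a different response, and the difference itself was tested. The interaction, which subtracts the effect of stretch in vehicle from that in inhibitor, was 0.56 ± 0.27 for Cd53 (adjusted p = 0.984), 0.29 ± 0.25 for Cybb, 0.43 ± 0.32 for Alox5ap, 0.36 ± 0.21 for Spp1 and 0.20 ± 0.33 for Cd14. Of the 35 members 0 passed this test in edgeR, where 0.00% of all tested genes passed; 1 member, Cd53, had an unadjusted p below 0.05 (all genes 4.15%), and DESeq2 called 0 members (all genes 0.0227%). The median interaction was 0.16 over the members and 0.00 over all genes. For Fcer1g it was -0.22 ± 0.23, with an interval of -0.71 to 0.28.

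Members that did not pass without inhibitor and not with it either included the lineage genes. Ptprc was at 34, 131, 113, 127 and 49 CPM in NS_PI and 73.9, 79.3, 121, 148 and 117 CPM in S_PI, higher in 4 of 5 animals and lower in animal 2, by 0.37 ± 0.20 (adjusted p = 0.165; 0.017 without animal 2). Spi1 was at 26.5 ± 12.2 and 27.3 ± 8.77 CPM (SD, n = 5), a log2 difference of 0.09 ± 0.22. Csf1r was at 36.7 ± 15.8 and 36.1 ± 15.2 CPM, a difference of -0.04 ± 0.20. Lyz2 was higher in 4 of 5 animals, by 0.36 ± 0.15 (adjusted p = 0.07). Tlr4 was lower in all 5 animals, with a log2 difference of -0.68 ± 0.31, from 9.08 ± 2.55 to 5.72 ± 1.08 CPM, and did not pass (adjusted p = 0.104). Gpnmb differed by 0.30 ± 0.15 (adjusted p = 0.127; 0.0491 without animal 2), Tlr2 by 0.18 ± 0.34, Cyba by 0.11 ± 0.12 and Ncf1 by -0.13 ± 0.17.

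**Figure D3:**
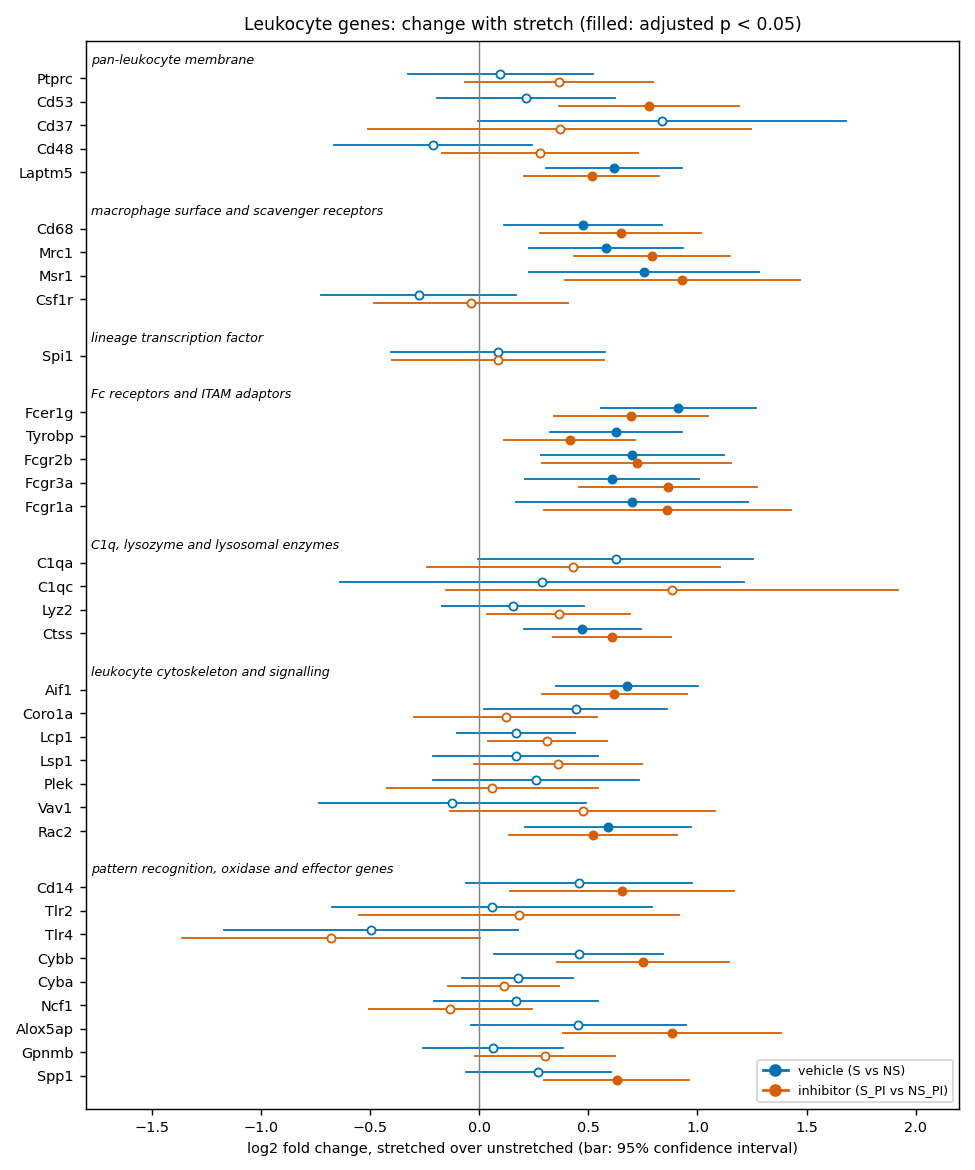
Log2 fold change of stretched over unstretched libraries (horizontal axis) with its 95% confidence interval for the 35 tested members, grouped by role (vertical axis), without inhibitor in blue and with it in orange; filled points passed at an adjusted p below 0.05. All 5 Fc receptor and adaptor genes are filled in both colours, Spi1 and Csf1r in neither, and 4 activation genes in orange alone.

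Ratios between a few chosen pairs of members are given as a description. There were 2.36, 1.62, 1.75, 3.57 and 3.4 Fcer1g counts per Ptprc count in NS animals 1 to 5 and 3.76, 4.3, 4.08, 4.41 and 4.91 in S. The ratio was higher after stretch in 5 of 5 animals, and every S value lay above every NS value. With inhibitor the ratio averaged 2.81 ± 1.13 in NS_PI and 3.42 ± 1.05 in S_PI (SD, n = 5) and was higher in 3 of 5 animals. Fcer1g per Spi1 count averaged 10.7 ± 4.14 in NS and 18.8 ± 5.4 in S, higher in 5 of 5 animals, and 9.03 ± 2.95 and 13.4 ± 2.61 with inhibitor, higher in 4 of 5. Laptm5 per Ptprc count, 5.97 ± 1.33 in NS and 8.51 ± 1.09 in S, was higher in 5 of 5 animals without inhibitor and in 3 of 5 with it. Lyz2 per Ptprc count was higher in 3 of 5 animals in both comparisons. These pairs of genes were chosen with their levels known, and no test was made on them. Fcer1g and Laptm5 were called in both stretch comparisons and Ptprc and Spi1 in neither, so the choice itself favours a higher ratio.

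The inhibitor alone gave no call among the members. In NS_PI against NS 0 of 35 passed in edgeR, where 0.00% of all tested genes passed; 1 member had an unadjusted p below 0.05 (all genes 5.47%) and DESeq2 called 0 members (all genes 0.0529%). The median was -0.13 over the members, with 11 of 35 above 0, and -0.00 over all genes. The member at an unadjusted p below 0.05 was Mrc1, which was lower with inhibitor in 5 of 5 animals, with a log2 difference of -0.36 ± 0.16 (adjusted p = 0.9). Its levels were 59.6, 116, 129.7, 182 and 71.3 CPM with inhibitor, beside the NS values given above. In S_PI against S 0 of 35 passed in edgeR, where 0.00% of all tested genes passed; 0 had an unadjusted p below 0.05 (all genes 4.09%), DESeq2 called 0 (all genes 0.0755%), and the median was -0.03. The difference for Fcer1g was -0.26 ± 0.16 with an interval of -0.61 to 0.09, and for Spp1 0.26 ± 0.15 with an interval of -0.08 to 0.59. These comparisons share libraries with the stretch comparisons.

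Most of these genes differed between animals. In a joint test of the 5 animals 32 of 35 members differed between animals (91.4%), where 47.4% of all tested genes did: 25 of 26 identity genes and 7 of 9 activation genes. The ratio of the highest to the lowest animal mean had a median of 2.96 over the members, from 1.33 for Cd48 to 9.65 for Fcgr2b, and of 1.66 over all genes. Animal 1 was lowest for 28 of 35 members (80.0%; all genes 31.7%) and animal 4 highest for 24 of 35 (68.6%; all genes 16.2%). The 4 libraries of an animal share its isolation, so the test compares these 5 animals only.

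Lyz2 averaged 1075, 5874, 6000.1, 9313 and 2335 CPM over the 4 libraries of animals 1 to 5. Fcgr2b averaged 5.23, 32.6, 37.7, 50.5 and 27.2 CPM and Ncf1 139, 459, 562, 1021 and 529 CPM in the same order. For all 3 animal 1 was lowest and animal 4 highest. Cd14 had another order, 14.5, 18.2, 11, 38.2 and 47.9 CPM, lowest in animal 3 and highest in animal 5. Cd48, Tlr2 and Tlr4 were the 3 members that did not differ between animals by this test, with adjusted p of 0.495, 0.0733 and 0.635. Without animal 1 in the test 31 members passed, and 26.9% of all tested genes did. Animals 4 and 5 also had the lowest sums of type I markers, 1616 and 1914 CPM, against 5482, 6956 and 5262 CPM in animals 1, 2 and 3, and the relation to the leukocyte genes was not tested.

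**Figure D4:**
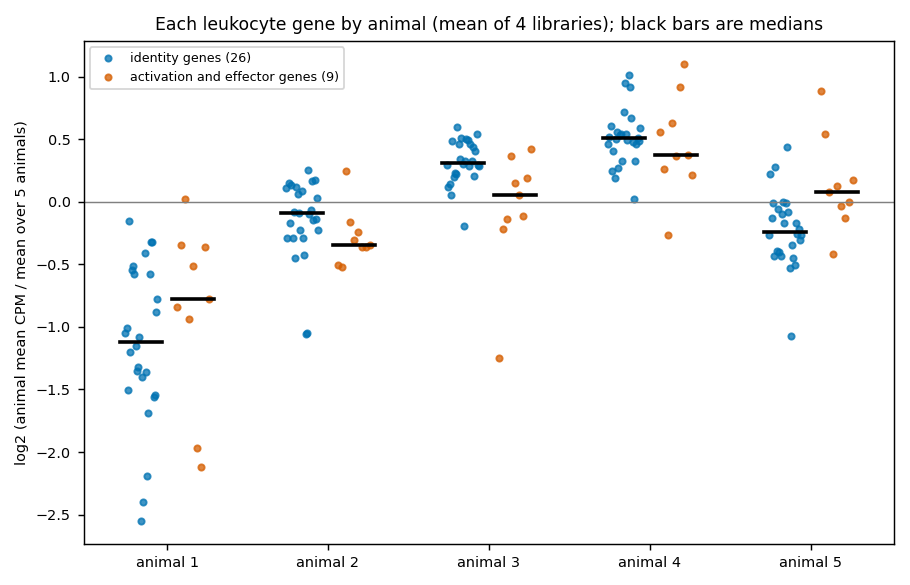
Log2 ratio of each member's mean CPM in an animal (4 libraries) to its mean over the 5 animals (vertical axis), for 26 identity genes in blue and 9 activation genes in orange, by animal (horizontal axis); black bars are medians. Most identity genes lie below 0 in animal 1 and above 0 in animals 3 and 4, and in animal 5 the median lies above 0 for the activation genes and below 0 for the identity genes.

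Other leukocyte genes, from lists of textbook markers, were read beside the members. Of 60 other myeloid and pan-leukocyte genes 57 were found and 33 tested; 5 rose and 2 fell in S against NS, with a median of 0.21, where 12.5% and 12.4% of all tested genes did. With inhibitor 9 rose and 2 fell, where 15.2% and 15.3% of all tested genes did. Apbb1ip, a Rap1 effector for integrins, rose by 0.83 ± 0.21 from 54.6 ± 21.3 to 101 ± 55.8 CPM, and Hcls1, a cortactin relative of blood cells, by 0.73 ± 0.15 from 71.6 ± 25.8 to 115 ± 26 CPM. Was, the Wiskott-Aldrich actin regulator, rose by 0.79 ± 0.24 without inhibitor and had 0.13 ± 0.25 with it, which did not pass. Cytip, a cytohesin-binding protein of leukocytes, went the other way and fell by 0.70 ± 0.21, lower in 5 of 5 animals.

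Secreted and induced products of activated macrophages were counted beside the 9 activation members. Many of them are also made by stressed epithelium, and these values do not show which cell made them. Of 42 listed genes 27 were tested. In S against NS 13 rose and 0 fell, with a median of 0.61, where 12.5% and 12.4% of all tested genes did. With inhibitor 16 rose and 0 fell, with a median of 0.77, where 15.2% and 15.3% of all tested genes did. The neutrophil chemokine Cxcl2 rose by 2.23 ± 0.24 from 62.4 ± 52.1 to 263 ± 182 CPM, and the chemokine Ccl3 by 2.15 ± 0.26 from 45.9 ± 23 to 204 ± 119 CPM. The interleukins Il1a and Il1b rose by 1.52 ± 0.32 and 1.13 ± 0.25. With inhibitor the 4 rises were 2.38 ± 0.24, 2.29 ± 0.26, 1.71 ± 0.33 and 1.82 ± 0.27, and all 4 genes were higher in 5 of 5 animals in both comparisons.

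Among ligands and growth factor receptors of leukocytes 6 of 11 were tested. In S against NS 1 rose and 4 fell, where 12.5% and 12.4% of all tested genes did. Csf1, the growth factor read by Csf1r, was at 119 ± 15.6 CPM in NS and 47.9 ± 11.8 CPM in S and fell by 1.33 ± 0.14, lower in 5 of 5 animals. Cd200 and Cd47, surface ligands that restrain macrophages, fell by 0.78 ± 0.16 and 0.45 ± 0.14; Cd47 did not pass with inhibitor (-0.09 ± 0.14). Csf2ra, a receptor chain for GM-CSF, rose by 0.70 ± 0.21 and had 0.46 ± 0.21 with inhibitor, which did not pass. Of 10 neutrophil genes 3 were tested and 1 rose in each comparison (all tested genes 12.5% without inhibitor and 15.2% with it). S100a8, a calcium-binding protein also found in monocytes, rose by 0.91 ± 0.27 without inhibitor and 1.02 ± 0.27 with it, at 10.4 ± 9.92 CPM in NS. Its partner S100a9 had -0.23 ± 0.43 and -0.60 ± 0.42 and Cxcr1 -0.16 ± 0.20 and -0.11 ± 0.20, and neither passed. Of 13 T and NK cell genes 1 was tested, Lck, and of 7 dendritic cell genes 1, Cd83; neither passed, and no B cell or mast cell gene reached the filter.

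In the authors' deposited table, whose header names neither groups nor direction, 40 members had an entry, 36 an adjusted p and 5 an adjusted p below 0.05: Fcer1g, Tyrobp, Laptm5, Aif1 and Mrc1. In log2, these 5 had -0.91, -0.62, -0.62, -0.66 and -0.56 there, against 0.91, 0.63, 0.62, 0.68 and 0.58 in S against NS here. Csf1r and Tlr4 had 0.23 and 0.33 there, against -0.28 and -0.50 here. Such signs would arise if the values were unstretched over stretched, but the header does not state it. The share of all genes in that table below 0.05 was not counted. The table was made from the same libraries and is not a second measurement.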

How the data were processed

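The authors aligned reads to rn6 with STAR, counted them with HTSeq and used DESeq2, per the submitters' processing notes; no version is given in the sources used here. The deposited table holds raw counts per gene symbol in 20 libraries, with 0 unused columns. A second deposited table holds, per the file headers, a normalized mean count (a signal), log2 fold changes and their errors, a Wald score, a p-value and an adjusted p-value; its groups are not named, and gene identifiers were taken from it. The 5 HTSeq summary entries were left out of library sizes. Relative to all records, those outside genes made up 16.2 to 24.5%, those without a single place 35.5 to 57.7% and ambiguous ones at most 0.145%.

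Genes were filtered with filterByExpr over the 4 groups and normalized by TMM, then tested by edgeR's quasi-likelihood method (edgeR 4.0.16, limma 3.58.1, R 4.3.3) with terms for group and animal in 1 fit to all 20 libraries (12 residual degrees of freedom). Benjamini-Hochberg adjustment ran over all 8320 tested genes and calls are at 0.05. SE is the log2 fold change divided by the root of F, and 95% intervals use 12 degrees of freedom. Counts of animals that were higher use log2(CPM + 0.5). A response to stretch that varies from animal to animal is not modelled and enters the residual spread. Figures were drawn with matplotlib 3.10.9 (Python 3.11.15).

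The labels' protocol says that pooled monolayers came from the same animal, and the replicate number was read as the animal. Deviations from group means correlated with a median r of 0.48 and at least 0.32 between libraries of the same number, and -0.19 between numbers; 20 of 20 libraries were closest to their own number, and 0 pairs of libraries were identical. No batch is given, so none was tested. No molecular identifiers are named, so floors cover counting error only.

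The members, the lists and the named genes were chosen with earlier results of these data known. All values are given for members that passed in any contrast and for a fixed set of identity, activation and lymphocyte genes. Of each context list at most 4 called genes with the largest change in S vs NS and a mean of at least 10 CPM are named. Fcgr2a is named in addition, beside the listed Fc receptors. The procedure was tested on simulated data. Alternatives were DESeq2 1.42.0, other scalings, no filter, no animal block, only the compared groups and leaving out each animal.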

Additional observations from a re-analysis of the deposited data

Results flagged for a closer look

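In 50 sets of 5 paired differences (log2 of CPM + 0.5, stretched minus unstretched library of an animal), 2 held an animal far from the other 4 by Dixon's test at 95%; chance alone gives about 1 in 20 such sets. The difference of C1qc, a complement gene near the floor, was 2.03 in animal 1 with inhibitor, while the other 4 animals lay between 0.36 and 0.67. The difference of Cd14 was -0.44 in animal 2 with inhibitor, while the other 4 animals lay between 0.70 and 1.13. The deviating animal of Cd14 lay on the other side of 0, and Cd14 passed with all 5 animals included (log2 fold change 0.66 ± 0.24, adjusted p = 0.0389).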

How the results depend on the processing

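Every call among the members needs the animal in the model. Without the replicate block 0 members rose in S vs NS and 0 in S_PI vs NS_PI, while 419 and 643 genes rose and 399 and 586 fell. With only the compared groups in the fit the S vs NS comparison had 5 rising members, 531 rising and 517 falling genes. Leaving out each animal in turn gave 7 to 13 rising members in S vs NS and 11 to 19 in S_PI vs NS_PI, 656 to 851 falling genes in S vs NS, 0 to 3 genes in NS_PI vs NS, and 2213 to 3618 genes that differed between animals. In NS_PI vs NS 7 genes passed by DESeq2, 4 without the filter and 27 with only the compared groups; DESeq2 called 10 genes in S_PI vs S and 3 in the interaction. Cd14 lost its call in S_PI vs NS_PI with only the compared groups. With upper-quartile scaling or library size only, Cd68 and Fcgr1a lost their calls in S vs NS. The same scalings removed the calls of Tyrobp, Rac2 and Cd14 in S_PI vs NS_PI, and Tyrobp lost its call there without the filter too. No called member changed direction under any of these alternatives.

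When library size alone set the scale, the median of all genes moved to -0.12 in both stretch comparisons, 10 and 14 members rose, and 33.6% and 36.3% of called genes were higher, against 50.3% and 49.8% with TMM. Among the 25 members whose values were traced through every alternative, those not called that changed sign were the following. In S vs NS Ptprc became -0.0062, Spi1 -0.017, Tlr2 -0.039 and Gpnmb -0.041 by library size only, and Tlr2 -0.026 without the replicate block. In S_PI vs NS_PI Spi1 became -0.016 by library size only. Leaving out each animal in turn gave values on both sides of 0 in S vs NS for Spi1 (-0.094 to 0.27) and Tlr2 (-0.18 to 0.27), and in S_PI vs NS_PI for Csf1r (-0.18 to 0.040), Spi1 (-0.023 to 0.20) and Tlr2 (-0.14 to 0.56). The causes were not tested. Standard errors of tested members had a median of 0.20 in S vs NS, which limits what single genes of low count can show.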
